A study of Homo sapiens with 6 samples.

Results

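Genes at loci that have been tied to neuroblastoma susceptibility, together with *CHD5* and the LIM-only relatives of *LMO1*, were followed in 6 total RNA libraries of a neuroblastoma cell line. Their number was 10 of the 60651 genes counted: the LIM-only genes *LMO1*, *LMO2*, *LMO3* and *LMO4*, the coding genes *BARD1*, *HACE1*, *DUSP12* and *CHD5*, and the long non-coding RNA genes *CASC15* and *NBAT1*. They are called susceptibility locus genes for short, although *LMO2*, *LMO3* and *LMO4* are included only as relatives of *LMO1*. They were chosen by symbol, and each symbol matched 1 gene identifier. Of the 6 libraries, 3 were labelled EtOH (ethanol, replicates 1 to 3) and 3 were labelled Tet (tetracycline, replicates 1 to 3), the latter for 5 days per the labels. The purpose stated for the experiment was to switch *MYCN* with tetracycline, and the libraries therefore allow the level of each gene in this line and the difference of Tet against EtOH to be measured. The labels did not give a single cell model. The titles named IMR575, that is IMR-5/75, a line with an amplified *MYCN* gene, and a tag spoke of a knockdown, whereas the protocols described SK-N-SH cells with a stable tetracycline-inducible *MYCN* construct and a tetracycline repressor, grown as single clones under G418 and blasticidin, in both groups. The study itself described a *MYCN* expression model in SK-N-AS and an inducible *MYCN* shRNA in IMR-5/75. Groups were taken from the titles alone, and nothing in the labels says whether the replicates were separate cultures, so that p-values measure the spread between these libraries.

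Neuroblastoma is a childhood tumour of the sympathetic lineage. Inherited risk for it has been mapped to common variants near *LMO1*, *BARD1*, *HACE1*, *DUSP12* and the *CASC15* and *NBAT1* pair, and *CHD5* lies in the part of chromosome 1 that is often lost in these tumours. The LMO proteins consist of LIM domains that do not bind DNA themselves and bridge LDB1, GATA factors and helix-loop-helix proteins in transcription complexes. BARD1 is the obligate partner of BRCA1 in a ubiquitin ligase of homologous recombination, HACE1 is a HECT-type ubiquitin ligase that acts on active RAC1, DUSP12 is an atypical dual-specificity phosphatase, and CHD5 is a neuronal chromatin remodeller of the CHD family. *CASC15* and *NBAT1* are transcribed from opposite strands of the same region and have been described as RNAs with tumour suppressor properties in this tumour.

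Sequences upstream of the start are shown for *LMO4* and *LMO1*, the most abundant LIM-only gene and the one at the risk locus, and for *CASC15* and *NBAT1*, the overlapping pair. Each is the stretch of 250 bases before the start of the RefSeq gene on GRCh38.p14, 5′ to 3′ on the strand of the gene, with the CG dinucleotides in capitals. They lie at chr1:87328630-87328879 on the plus strand for *LMO4*, chr11:8268788-8269037 on the minus strand for *LMO1*, chr6:21666163-21666412 on the plus strand for *CASC15* and chr6:22147194-22147443 on the minus strand for *NBAT1*.
LMO4: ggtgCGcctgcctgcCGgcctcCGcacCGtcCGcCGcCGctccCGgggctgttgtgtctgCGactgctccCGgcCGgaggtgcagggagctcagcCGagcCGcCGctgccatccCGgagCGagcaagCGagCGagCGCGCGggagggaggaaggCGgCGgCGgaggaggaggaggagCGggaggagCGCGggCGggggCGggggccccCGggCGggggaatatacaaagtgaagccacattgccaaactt
LMO1: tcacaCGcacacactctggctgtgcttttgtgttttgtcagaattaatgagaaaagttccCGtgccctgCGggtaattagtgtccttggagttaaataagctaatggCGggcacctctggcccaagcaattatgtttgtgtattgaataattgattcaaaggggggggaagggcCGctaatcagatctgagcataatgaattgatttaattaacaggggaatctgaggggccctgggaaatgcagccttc
CASC15: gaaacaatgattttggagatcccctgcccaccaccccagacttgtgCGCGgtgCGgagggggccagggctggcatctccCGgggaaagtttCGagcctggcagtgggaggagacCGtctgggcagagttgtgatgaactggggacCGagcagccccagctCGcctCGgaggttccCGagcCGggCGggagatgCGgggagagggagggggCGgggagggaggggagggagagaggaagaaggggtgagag
NBAT1: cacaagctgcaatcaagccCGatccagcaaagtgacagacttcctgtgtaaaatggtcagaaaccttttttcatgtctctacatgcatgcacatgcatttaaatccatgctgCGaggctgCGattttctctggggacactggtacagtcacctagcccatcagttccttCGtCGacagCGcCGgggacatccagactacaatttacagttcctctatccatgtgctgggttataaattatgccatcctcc
The *CASC15* window lies inside the gene as counted here, which starts at 21664185, and overlaps its exon from 21666388 to 21666645, because RefSeq places the start further downstream. The *LMO4* window held 31 CG dinucleotides at a GC content of 74.4%, and 89.1% of the 35116 upstream windows of the RefSeq table held fewer. The *LMO1* window held 5 CG dinucleotides at a GC content of 45.6%, the *CASC15* window 14 at 66.8% and the *NBAT1* window 7 at 47.6%. The median window held 11 CG dinucleotides at a GC content of 58%, so that *LMO4* and *CASC15* lay above it and *LMO1* and *NBAT1* below it. The table held 13 such windows for 7 of the 10 genes, all but *LMO2*, *DUSP12* and *CHD5*. The E-box CACGTG, a palindrome bound by MYC proteins, was found in 0 of these 13 windows and in 6.34% of all windows. The letters AGATAA, searched on both strands and bound by GATA factors, were likewise found in 0 of the 13 and in 9.17% of all windows. These are matches of letters in the windows only.

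*NBAT1* lies within the span of *CASC15* on the opposite strand, and their exons share 227 bases in 2 segments, 6.15% of the exon bases of *NBAT1* and 0.662% of those of *CASC15*. The segments are given here, from the plus strand of GRCh38, because a read pair inside them was divided between the pair. They lie at chr6:22146679-22146751 (73 bases, GC content 71.2%) and at chr6:22147040-22147193 (154 bases, GC content 51.9%), the second of which ends at the start of *NBAT1*.
segment 1: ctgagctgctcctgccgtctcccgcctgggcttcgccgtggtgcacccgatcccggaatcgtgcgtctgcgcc
segment 2: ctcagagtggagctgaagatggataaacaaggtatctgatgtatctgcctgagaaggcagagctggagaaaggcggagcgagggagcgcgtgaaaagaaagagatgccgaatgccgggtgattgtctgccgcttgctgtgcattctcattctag

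The libraries held between 27933378 and 40498065 counts, and 3 counts corresponded to between 0.0755 and 0.108 CPM (counts scaled for library size by TMM). Along the first principal component of all genes the scores were 84.2 for EtOH replicate 2 and 47.3 for Tet replicate 2 at one end, and -55.0 for EtOH replicate 1 at the other, a wider spread within the EtOH group than between the groups. The second component separated the labels, with scores of -34.7, -39.1 and -38.9 in EtOH replicates 1 to 3 and 26.4, 38.1 and 48.1 in Tet replicates 1 to 3. The mitochondrial genome took between 4.12% (EtOH replicate 2) and 10.01% (EtOH replicate 1) of counts. *MYCN* was at 157.9, 256.3 and 155.9 CPM in EtOH replicates 1 to 3. In Tet replicates 1 to 3 it was at 196.6, 200.1 and 145.4 CPM. The log2 fold change was -0.07 (with an SE of 0.23, edgeR adjusted p = 0.956). The study reported western blots of MYCN protein for its tetracycline models, both for knockdown by the shRNA and for induced expression. The libraries hold RNA only, and their labels did not settle which model they came from. Every difference given below is therefore between labels, and the MYCN protein level behind each label was not tested here. Of the 10 noradrenergic neuroblastoma markers looked at, 7 had at least 1 TPM (the level per exon base, scaled to the same total in each library) in every library, with *TH* at a total of 1 count and *DBH* at 35.5 counts. Their summed level was 584 to 614 TPM in EtOH libraries and 658 to 772 TPM in Tet libraries. Of 10 mesenchymal markers 6 reached 1 TPM in every library, with sums of 186 to 342 TPM in EtOH libraries and 190 to 320 TPM in Tet libraries. None of the 5 Schwann cell, 5 immune cell and 5 endothelial markers did, and their sums were at most 4.16, 1.79 and 0.246 TPM, with *CD3E* and *VWF* at 0 in every library.

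The 10 genes spanned more than 3 orders of magnitude per exon length. By mean over the 6 libraries, *DUSP12* was first with 119.6 TPM, followed by *LMO4* with 76.9, *BARD1* with 47.4, *HACE1* with 30.3, *CASC15* with 14.8, *NBAT1* with 14.0 and *LMO3* with 2.44 TPM. *LMO1* had 0.556 TPM, *CHD5* 0.0535 TPM and *LMO2* 0.0411 TPM, so that the LIM-only gene at the risk locus was among the 3 least abundant of the 10 in this line. The ranges over libraries of neighbours in this order overlapped for *DUSP12* and *LMO4*, *LMO4* and *BARD1*, *BARD1* and *HACE1*, *CASC15* and *NBAT1*, and *CHD5* and *LMO2*. They did not overlap between *HACE1* and *CASC15*, *NBAT1* and *LMO3*, *LMO3* and *LMO1*, or *LMO1* and *CHD5*. Against all 22443 genes tested, *DUSP12* was at the 96.7th percentile of mean TPM, *LMO4* at the 93.6th, *BARD1* at the 88.2nd, *HACE1* at the 81.2nd, *CASC15* at the 68.1st, *NBAT1* at the 66.9th, *LMO3* at the 32.0th and *LMO1* at the 9.62nd. Exon length here takes in every annotated exon base of a gene, 34302 for *CASC15*, and a transcript may hold only part of them. By CPM, which is not divided by length, *CASC15* was first of the 10 with a mean of 187.1, against 77.5 for *DUSP12*.

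**Figure D1:**
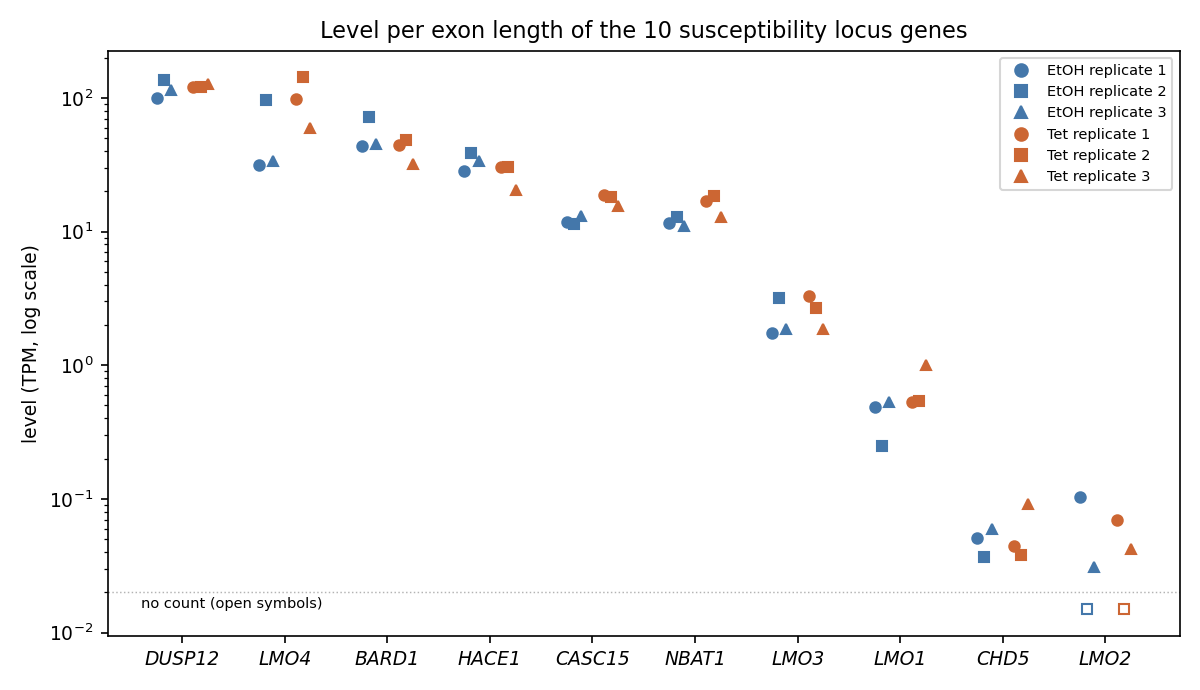
Level of each of the 10 genes per exon length in each library (y axis, TPM on a log scale), ordered by mean, with blue symbols for EtOH, orange symbols for Tet and the shape giving the replicate. *DUSP12* is highest with a mean of 119.6 TPM and *LMO2* lowest with 0.0411 TPM, and open symbols on the lowest line are libraries with no count.

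Of the 10 genes, 8 passed the filter on low counts and were compared between the labels with the quasi-likelihood test of edgeR, adjusted over all genes tested. None of the 8 passed the adjusted threshold of 0.05, where 53 of 22443 genes did (0.236%). With DESeq2 1 of the 8 did (*CASC15*), where 606 of 22443 genes did. With edgeR the number over all genes rested on single libraries. It was 692 of 23935 without EtOH replicate 2, of which 1 was among the 8 (*LMO4*), and between 0 and 2 without each of the others. At an unadjusted p under 0.05 there were 3 of 8 (*LMO4*, *CASC15* and *NBAT1*, all with a higher mean in Tet), against 10.8% of all genes. The number among the 8 was 1 without EtOH replicate 1, EtOH replicate 3, Tet replicate 1 or Tet replicate 2, each left out in turn. Over all genes those 4 fits had between 1476 of 23701 and 1956 of 23260. Among the 8 it was 2 with RLE size factors (2378 of 22443 over all genes) and 4 without EtOH replicate 2 (4918 of 23935). It was 3 of 7 tested without Tet replicate 3 (2067 of 22944 over all genes), and 3 with DESeq2 (2605 of 22443). The median log2 fold change of the 8 was 0.39, with 6 values above 0 and 2 below it, against a median of -0.0061 over all genes tested. All 3 Tet libraries lay above all 3 EtOH libraries for 2 of the 8, *CASC15* and *NBAT1*, as they did for 9.21% of all genes, and the groups overlapped for the other 6. The spans of *CASC15* and *NBAT1* overlap and strand was not used in counting, so the 2 are not fully separate measurements. In either direction, 17.5% of all genes had groups that did not overlap. These are bulk values, in which fewer cells with a transcript and less of it per cell cannot be told apart.

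**Figure D2:**
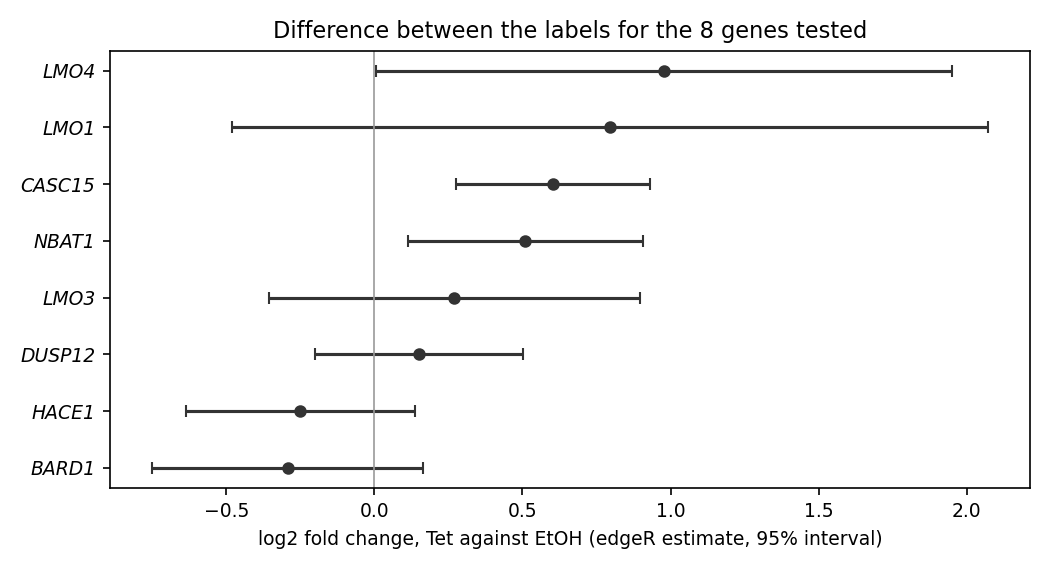
Log2 fold change of Tet against EtOH for the 8 genes tested (x axis; point, edgeR estimate; bar, 95% interval; 3 libraries a group). The intervals of *LMO4*, *CASC15* and *NBAT1* lie above 0 before adjustment for the number of genes tested, and the other 5 include 0.

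Among the LIM-only genes, *LMO4* accounted for nearly all of the family's transcripts. *LMO4* (ENSG00000143013.13, chr1:87328880-87348923, plus strand, 5421 exon bases) was at 63.1, 176.6 and 67.2 CPM in EtOH replicates 1 to 3 and at 187.7, 283.5 and 133.0 CPM in Tet replicates 1 to 3. EtOH replicate 2 stood apart from the other EtOH libraries and lay inside the range of the Tet libraries, and the highest library had 4.49 times the level of the lowest. The means were 102.3 ± 64.4 CPM for EtOH and 201.4 ± 76.2 CPM for Tet (SD, n = 3 per group), and the log2 fold change of 0.98 (with an SE of 0.43, 95% interval 0.0048 to 1.95) did not pass the test (edgeR adjusted p = 0.462). Without EtOH replicate 2, which was also at one end of the first principal component, the log2 fold change was 1.64 and passed (edgeR adjusted p = 0.0198). The part of that library's position in the result was not tested.

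*LMO3* (ENSG00000048540.15, chr12:16548372-16610594, minus strand, 10002 exon bases), a family member expressed mainly in neural tissue, was at 6.47, 10.9 and 6.88 CPM in EtOH replicates and at 11.7, 9.79 and 7.65 CPM in Tet replicates. As for *LMO4*, replicate 2 was the highest EtOH library, and it lay inside the Tet range. The log2 fold change was 0.27 (with an SE of 0.27, 95% interval -0.36 to 0.90, edgeR adjusted p = 0.809). *LMO1* (ENSG00000166407.14, chr11:8224309-8268716, minus strand, 1705 exon bases) had 11, 4 and 10 counts in EtOH replicates and 9, 12 and 28 counts in Tet replicates, 74 in all. Tet replicate 3 alone held 28 of them, and without it the gene did not pass the filter on low counts. The levels of 0.307, 0.144 and 0.331 CPM against 0.319, 0.338 and 0.705 CPM gave a log2 fold change of 0.79 (with an SE of 0.56, 95% interval -0.48 to 2.07, edgeR adjusted p = 0.692), an interval that leaves the direction unknown at this depth. *LMO2* (ENSG00000135363.12, chr11:33858576-33892076, minus strand), the family member of blood and endothelial cells, had 4, 0 and 1 counts in EtOH replicates and 2, 0 and 2 counts in Tet replicates, and was not tested. The counts of 0 allow up to 0.108 CPM in EtOH replicate 2 and 0.0846 CPM in Tet replicate 2, for counting error only.

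Taken per exon length, *LMO4* made up 93.1%, 96.5% and 93.3% of the summed TPM of the 4 LIM-only genes in EtOH replicates 1 to 3 and 96.2%, 97.8% and 95.4% in Tet replicates 1 to 3. The means were 94.3% ± 1.94 and 96.4% ± 1.25 (SD, n = 3 per group), with overlap between the groups. *LMO3* took 4.52% ± 1.13 in EtOH libraries and 2.69% ± 0.756 in Tet libraries. *LMO1* took between 0.251% and 1.61%, and *LMO2* at most 0.308%. The ratio of *LMO4* to *LMO3* ran from 17.99 to 53.4 over the 6 libraries, and the order *LMO4*, *LMO3*, *LMO1*, *LMO2* was the same in each of them.

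*CASC15* (ENSG00000272168.8, chr6:21664185-22654455, plus strand, 34302 exon bases in 69 blocks over 990271 bases) had the narrowest Tet group of the 8 genes tested, with a coefficient of variation of 2.46%. It stood at 149.3, 132.1 and 164.4 CPM in EtOH replicates 1 to 3 and 229.0, 228.8 and 219.3 CPM in Tet replicates 1 to 3. Every Tet library was thus above every EtOH library, and the means were 148.6 ± 16.1 and 225.7 ± 5.56 CPM (SD, n = 3 per group). The log2 fold change of 0.60 (with an SE of 0.14, 95% interval 0.28 to 0.93, unadjusted p = 0.00252) did not pass the test over all genes (edgeR adjusted p = 0.158), whereas with DESeq2 on the same counts it did (adjusted p = 0.0253).

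*NBAT1* (ENSG00000260455.2, chr6:22133205-22147193, minus strand, 3692 exon bases) was at 15.9, 16.1 and 14.9 CPM in EtOH replicates and at 22.1, 25.2 and 19.4 CPM in Tet replicates. Again no Tet library reached down to the EtOH libraries, and the EtOH libraries lay close together. The means were 15.6 ± 0.631 and 22.2 ± 2.92 CPM (SD, n = 3 per group), with a log2 fold change of 0.51 (with an SE of 0.17, 95% interval 0.11 to 0.91, unadjusted p = 0.0177, edgeR adjusted p = 0.329). Per exon length the pair was at nearly the same level, with a ratio of *NBAT1* to *CASC15* TPM of 0.987, 1.13 and 0.843 in EtOH replicates and 0.897, 1.02 and 0.820 in Tet replicates. That ratio rests on all annotated exon bases, 34302 for *CASC15* against 3692 for *NBAT1*, and a transcript may hold only part of them. By CPM, which is not divided by length, the means over the 6 libraries were 187.1 for *CASC15* and 18.9 for *NBAT1*. Counting ignored the strand, so reads of the pair inside the shared segments printed above, and any antisense transcript over the exons, cannot be told apart. The largest exon block of *NBAT1*, from 22133205 to 22136669, lies between *CASC15* exons that end at 22114037 and start at 22142901. Unspliced *CASC15* RNA there would also be counted as *NBAT1*, and its share was not tested. *SOX4*, the transcription factor gene 65566 bases before *CASC15*, was at 133.7, 222.3 and 134.5 CPM in EtOH replicates and 211.6, 245.3 and 146.3 CPM in Tet replicates, with overlapping groups (log2 fold change 0.30 with an SE of 0.26, edgeR adjusted p = 0.767).

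**Figure D3:**
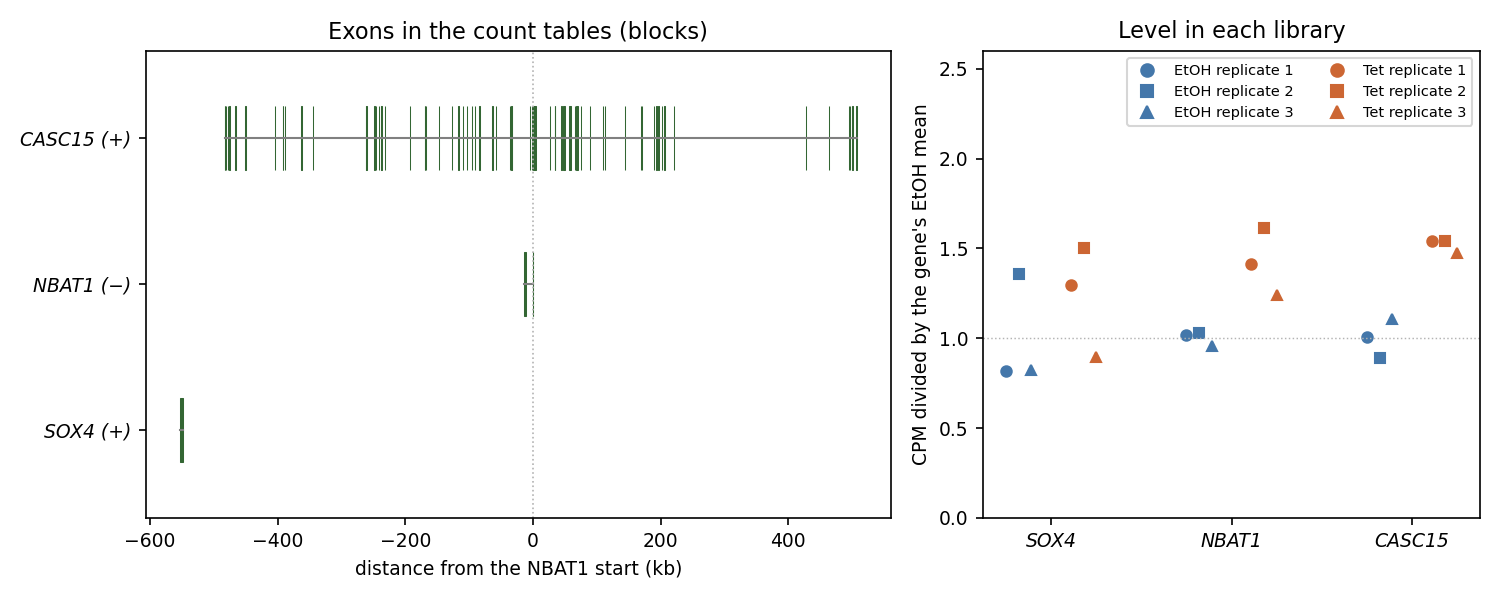
Left, exon blocks of *CASC15*, *NBAT1* and *SOX4* by distance from the *NBAT1* start (x axis, kb; strand in brackets). Right, CPM of each gene divided by its own EtOH mean (y axis, from 0; blue, EtOH; orange, Tet; shape, replicate): the groups do not overlap for *NBAT1* and *CASC15* and overlap for *SOX4*.

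For *BARD1*, *HACE1* and *DUSP12*, the coding genes with moderate to high levels outside the LIM-only family, the fitted differences were, together with that of *LMO3*, the smallest 4 of the 8, and each interval included 0. *BARD1* (ENSG00000138376.11, chr2:214725646-214809683, minus strand, 7572 exon bases) was at 122.9, 182.8 and 125.3 CPM in EtOH replicates 1 to 3 and at 118.4, 133.9 and 99.4 CPM in Tet replicates 1 to 3. EtOH replicate 2 was the highest of the 6 libraries, and the other EtOH libraries lay among the Tet libraries. With means of 143.7 ± 33.9 and 117.2 ± 17.3 CPM (SD, n = 3 per group), the log2 fold change was -0.29 (with an SE of 0.20, 95% interval -0.75 to 0.17, edgeR adjusted p = 0.680). Without EtOH replicate 2 it was -0.08.

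*HACE1* (ENSG00000085382.12, chr6:104728094-104859919, minus strand, 9237 exon bases) was at 97.8, 121.4 and 113.8 CPM in EtOH replicates and at 99.3, 103.8 and 77.0 CPM in Tet replicates. Tet replicate 3 was the lowest library, and EtOH replicate 1 lay below the other Tet libraries. The means were 111.0 ± 12.03 and 93.3 ± 14.4 CPM (SD, n = 3 per group; log2 fold change -0.25 with an SE of 0.17, 95% interval -0.64 to 0.14, edgeR adjusted p = 0.674). *DUSP12* (ENSG00000081721.12, chr1:161749758-161757238, plus strand, 1762 exon bases), the most abundant of the 10 per exon length, also had the narrowest range of the 8 genes tested, 1.39 times from the lowest to the highest library. It was at 65.6, 81.0 and 73.8 CPM in EtOH replicates and at 75.1, 78.4 and 91.1 CPM in Tet replicates, with means of 73.5 ± 7.73 and 81.5 ± 8.41 CPM (SD, n = 3 per group). The log2 fold change was 0.15 (with an SE of 0.15, 95% interval -0.20 to 0.50, edgeR adjusted p = 0.813).

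*CHD5* (ENSG00000116254.18, chr1:6101787-6180321, minus strand, 10094 exon bases) was barely counted. It had 6.83, 3.5 and 6.67 counts in EtOH replicates and 4.5, 5 and 15 counts in Tet replicates, 41.5 in all, and was not tested. Of its exon bases, 2.12% also belong to ENSG00000285629, a gene on the same strand, and read pairs over both were divided between them. The other 8 CHD family genes were all tested and had between 13.9 TPM (*CHD4*) and 137.9 TPM (*CHD1*) on average.

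The genes whose pattern over the 6 libraries was most like that of *LMO4* and *BARD1*, the pair with the widest range of log2 CPM among members with a mean of at least 1 CPM, were looked up among 10083 genes by the root mean square difference of log2 CPM after each gene was centred on its mean. For *LMO4* (range 2.17) these were *RERG*, a RAS-like GTPase gene (difference 0.128), *ID2*, an inhibitor of helix-loop-helix proteins (0.128), and *GCLM*, a subunit of the enzyme of glutathione synthesis (0.131). *ID2* was at 7.69, 23.2 and 9.09 CPM in EtOH replicates and at 20.4, 33.6 and 18.9 CPM in Tet replicates, with EtOH replicate 2 apart from the other EtOH libraries as in *LMO4*. For *BARD1* (range 0.878) they were *STIL*, a gene of centriole duplication (0.0234), *ACBD7* (0.0279) and *VKORC1L1* (0.0281). *STIL* was at 156.9, 235.7 and 159.7 CPM in EtOH replicates and at 145.6, 167.8 and 127.5 CPM in Tet replicates, so that EtOH replicate 2 was again the highest library. The points share the libraries, and the likeness is a description over 6 of them.

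**Figure D4:**
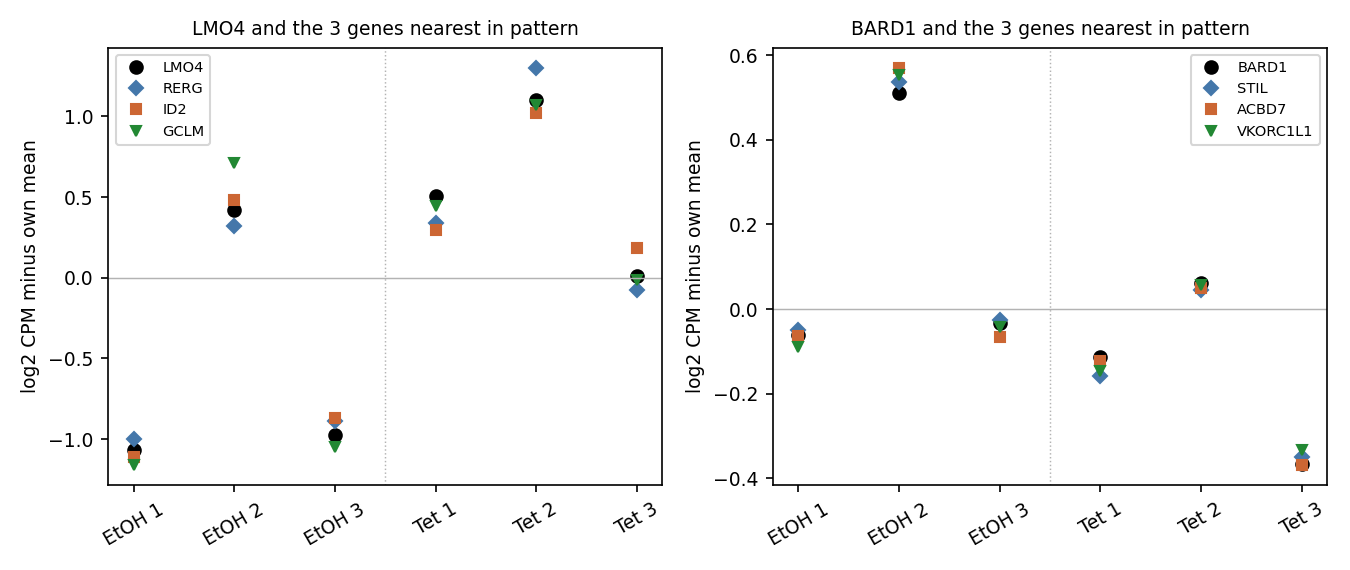
Log2 CPM minus the gene's own mean (y axis) in each library (x axis) for *LMO4* and *BARD1*, each with the 3 genes nearest in pattern. *LMO4* is lowest in EtOH replicates 1 and 3 and highest in Tet replicate 2, while *BARD1* is highest in EtOH replicate 2 and lowest in Tet replicate 3.

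Genes related to the 10 by function, family, location or a reported part in predisposition, in 9 lists, were examined in the same fit. Over the lists 103 of 114 genes were tested and 0 passed the adjusted threshold with edgeR. The number passing was 5 with DESeq2 (606 of 22443 over all genes) and 5 without EtOH replicate 2 (692 of 23935 over all genes). At an unadjusted p under 0.05, 5 had a higher and 6 a lower mean in Tet, a share close to the 10.8% of all genes, and the median log2 fold change was 0.0062. The list set around the LMO proteins was drawn broadly, with LIM-homeodomain factors and *SSBP1* in it, and not every gene in it assembles with them. Of its 20 genes 19 were tested, 4 had a higher and 1 a lower mean at that unadjusted level (10.8% of all genes in either direction), and the median was 0.11. *SSBP3*, which protects LDB1 complexes from degradation, had 54.4 ± 5.28 CPM in EtOH libraries and 92.7 ± 6.82 CPM in Tet libraries (SD, n = 3 per group; log2 fold change 0.77 with an SE of 0.15, edgeR adjusted p = 0.0903). *GATA3*, a master factor of the sympathetic lineage, was at 251, 229 and 263 CPM in EtOH replicates and at 299, 334 and 316 CPM in Tet replicates (log2 fold change 0.36, edgeR adjusted p = 0.401). *TCF12*, an E protein, had a log2 fold change of 0.11 (edgeR adjusted p = 0.837). Chosen after their values were seen, the other 3 genes at that unadjusted level were *ISL1* (log2 fold change 1.18, edgeR adjusted p = 0.142), *GATA2* (1.75, 0.193) and *LDB2* (-0.91, 0.113). *GATA3* and *ISL1* are also noradrenergic markers, whose summed level is given above and did not overlap between the groups, and the part of that difference in the list was not tested.

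The 20 partners of BARD1 in homologous recombination, all tested, had a median log2 fold change of -0.14. Only 1 of the 20, *RAD51D*, had an unadjusted p under 0.05 (log2 fold change -0.55, edgeR adjusted p = 0.463), against 10.8% of all genes. *BRCA1*, with which BARD1 forms its complex, had 344 ± 142 CPM in EtOH libraries and 345 ± 50.0 CPM in Tet libraries (SD, n = 3 per group; log2 fold change 0.0024, edgeR adjusted p = 0.999). EtOH replicate 2 was its highest library with 507.9 CPM, as it was for *BARD1*. *XRCC2*, which followed *BRCA1* by mean TPM in the list, had a log2 fold change of -0.29 (edgeR adjusted p = 0.790). Among 10 of 11 genes of HACE1 targets and RAC signalling that were tested, the median was 0.069. *RAC1*, the GTPase that HACE1 marks for degradation, had a log2 fold change of -0.07 (edgeR adjusted p = 0.946), *NFE2L2*, the antioxidant regulator, 0.09 (adjusted p = 0.907) and *DOCK3*, an activator of RAC, -1.36 (adjusted p = 0.354).

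In the other 6 lists 4 genes had an unadjusted p under 0.05, against 10.8% of all genes. Of the 13 other predisposition genes tested, 1 was higher and 2 were lower in Tet at that level. Of the 10 chromosome 1 candidates tested, 1 was lower, and the remaining lists had 0 each. The numbers tested are given with each list below, and the medians lay between -0.069 and 0.076. The CHD family had 8 of 8 genes tested, with a log2 fold change of -0.21 for *CHD1* and 0.24 for *CHD9*, and the subunits of the NuRD complex 12 of 12, with -0.13 for *RBBP4* and 0.32 for *HDAC2*. Of 9 genes set beside the non-coding pair, 7 were tested, with -0.05 for *EZH2*, the repressor that NBAT1 has been described to recruit, and -0.23 for *CDKAL1*. Of 10 atypical dual-specificity phosphatases related to DUSP12, 7 were tested, with -0.32 for *DUSP3*, 0.04 for *DUSP11* and 0.0062 for *STYX*. Of 16 other reported predisposition genes, 13 were tested, and *ALK*, the receptor kinase of familial neuroblastoma, was at 19.6, 15.4 and 20.2 CPM in EtOH replicates and at 28.4, 28.9 and 39.2 CPM in Tet replicates. The groups did not overlap for *ALK*, and its log2 fold change of 0.81 (with an SE of 0.20) did not pass the test (edgeR adjusted p = 0.177). *DDR2*, a collagen receptor kinase, had a log2 fold change of 0.34 (edgeR adjusted p = 0.727). Chosen after their values were seen, *KIF15* (log2 fold change -0.52, edgeR adjusted p = 0.271) and *MLF1* (-0.61, 0.282) of that list also had an unadjusted p under 0.05, with lower means in Tet. Of 11 candidate suppressors on the short arm of chromosome 1, where *CHD5* lies, 10 were tested, with 0.25 for *KIF1B* and -0.40 for *DFFA* (edgeR adjusted p = 0.541 and 0.422).

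**Figure D5:**
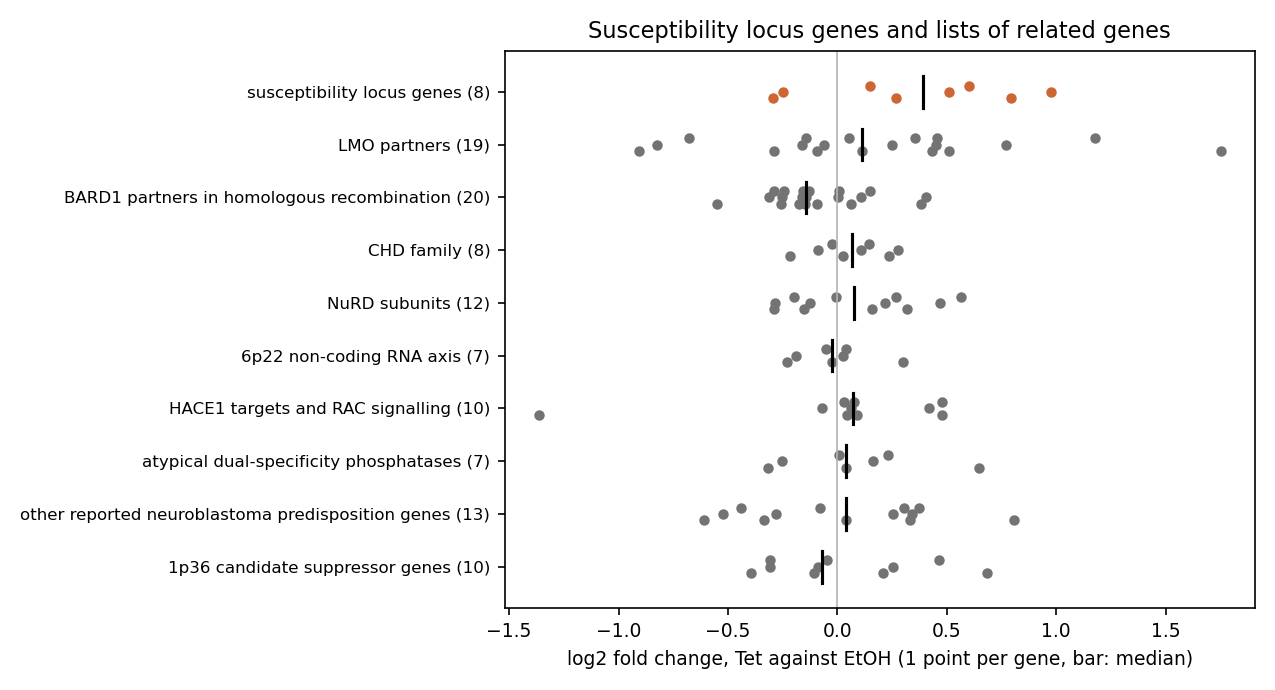
Log2 fold change of Tet against EtOH (x axis) for the 8 susceptibility locus genes tested (orange) and the genes of the 9 lists (grey), with 1 point per gene, the median as a bar and the number tested in brackets. The median is 0.39 for the susceptibility locus genes and lies between -0.14 and 0.11 for the lists.

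Within 500 kb of the 10 genes lay 192 other genes, of which 88 were tested and 0 passed the adjusted threshold with edgeR. With DESeq2 2 passed (606 of 22443 over all genes), and without EtOH replicate 2 it was 5 of 93 tested (692 of 23935 over all genes). In the edgeR fit of all 6 libraries, 10 of the 88 had an unadjusted p under 0.05. Of these 6 were higher and 4 lower in Tet, again close to the 10.8% of all genes. The median log2 fold change of the 88 was -0.05. Next to *LMO1*, the kinase gene *STK33* (123152 bases away) had 55.0 ± 3.87 CPM in EtOH libraries and 74.3 ± 1.23 CPM in Tet libraries (SD, n = 3 per group; log2 fold change 0.43, edgeR adjusted p = 0.287), and on the other side *RIC3-DT* (45406 bases) had 1.79 (adjusted p = 0.536). *SNHG31*, which lies 498 bases from *BARD1* on the opposite strand, had 14.1 ± 6.14 and 22.6 ± 3.71 CPM (log2 fold change 0.68, edgeR adjusted p = 0.462). Near *CHD5*, *KCNAB2* (594 bases) was also low, with 0.708 CPM in EtOH libraries and 0.858 CPM in Tet libraries, whereas the ribosomal protein gene *RPL22* (4699 bases) had 222 ± 60.8 and 148 ± 14.2 CPM (log2 fold change -0.59, edgeR adjusted p = 0.367). The nearest tested neighbours of the other genes were *LINC01364* for *LMO4* (4598 bases, log2 fold change 0.44), *FBXO3* for *LMO2* (84033 bases, 0.09), *SUPT16HP1* for *LMO3* (145966 bases, -0.26), *ATF6-DT* for *DUSP12* (8087 bases, 0.02), *RN7SKP240* for *NBAT1* (47287 bases, 0.42) and the unnamed ENSG00000271099 for *HACE1* (530 bases, -1.52, at 0.531 and 0.173 CPM). On their other sides lay the unnamed ENSG00000267561 for *LMO4* (159676 bases, -0.08), ENSG00000286626 for *LMO2* (157891 bases, -0.26), ENSG00000197585 for *BARD1* (41400 bases, -0.58), ENSG00000287616 for *HACE1* (199936 bases, -1.37) and ENSG00000283360 for *DUSP12* (279235 bases, -0.15), with edgeR adjusted p-values between 0.247 and 0.941. *RN7SKP240* lies between exons of *CASC15* on the same strand, so unspliced *CASC15* RNA there would also be counted as *RN7SKP240*, and its share was not tested.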

How the data were processed

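Total RNA depleted of ribosomal RNA was sequenced from 6 libraries. Each deposited table gives 1 library as estimated counts, which per the file headers the authors obtained with featureCounts 1.6.4 on unique alignments over exons, with a read pair over several genes divided among them and no use of strand. The submitters' processing notes name STAR 2.7.1a, featureCounts 1.5.1 and GRCh38, and the study's methods describe other counting options, so the values were treated as the headers state them. This counting cannot separate antisense pairs. Of 60651 genes, 99.6% had a symbol, and the 92 spike-in sequences had a largest count of 0. Replicates differed by more than sampling noise (chi-square per degree of freedom 11.4 to 147.3) and were kept as separate libraries.

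Counts were rounded, filtered with filterByExpr, scaled by TMM and tested by quasi-likelihood in edgeR 4.0.16 (F test; R 4.3.3; limma 3.58.1 and DESeq2 1.42.0 for alternatives), two-sided, with Benjamini-Hochberg adjustment over the 22443 genes tested and a threshold of 0.05. The SE was the log2 fold change divided by the square root of F. CPM are TMM-normalised, and TPM were computed from counts and exon length. The edgeR step was tested on simulated counts. Alternatives were other scalings, filters and tests, log2(TPM + 1), a replicate block and leaving out each library.

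The 10 genes and the 9 lists were chosen with earlier results of these data known. Named besides the 10 were, from each list, genes past the threshold, the 2 highest by TPM and the lowest unadjusted p, the nearest tested neighbour on each side within 500 kb, *MYCN*, and the 3 genes (mean of at least 5 CPM) nearest in pattern to the 2 members with the widest range among those with a mean of at least 1 CPM. Some genes that this rule names are not reported here. Sequences came from RefSeq (GRCh38.p14) and the GRCh38 genome. Of 53026 identifiers of the same version in GENCODE, 53025 had the same coordinates.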

Additional observations from a re-analysis of the deposited data

How the results depend on the processing

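Over 118 alternative values for the 8 susceptibility locus genes tested, 0 changed sign and 4 passed the adjusted threshold where the reported value did not: *LMO4* without EtOH replicate 2 (log2 fold change 1.64, edgeR adjusted p = 0.0198) and with the replicate block, and *CASC15* with DESeq2 (0.59, adjusted p = 0.0253) and with the replicate block. The number of susceptibility genes past the threshold was 0 as reported and 1 with DESeq2, and ran from 0 to 1 when each library was left out in turn. For list genes it was 0 as reported, 2 with no filter on low counts and 5 with DESeq2, and ran from 0 to 5 over the left-out libraries. For neighbours it was 0 as reported, 1 with no filter and 2 with DESeq2, and ran from 0 to 5. For all genes it was 53 as reported, 302 with no filter and 606 with DESeq2, and ran from 0 to 692, the highest value in each case being the fit without EtOH replicate 2. The cause was not tested. Over all alternatives the log2 fold change ran from 0.65 to 1.64 for *LMO4*, from 0.50 to 0.66 for *CASC15*, from 0.40 to 0.60 for *NBAT1* and from 0.25 (on the log2(TPM + 1) scale) to 0.98 for *LMO1*, which was not tested without Tet replicate 3 or with at least 10 counts in every library. It ran from 0.11 to 0.55 for *LMO3*, from -0.42 to -0.08 for *BARD1*, from -0.35 to -0.12 for *HACE1* and from 0.05 to 0.23 for *DUSP12*, the lowest and the highest being fits without 1 library. Depth limits *LMO1*, *LMO2* and *CHD5*, with 74, 9 and 41.5 counts in all.

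With the replicate number as a block, 2 susceptibility genes passed (*LMO4*, log2 fold change 1.08, edgeR adjusted p = 0.00892, and *CASC15*, 0.61, 0.0306), as did 5 list genes, 2 neighbours and 675 of all genes. The deviations of same-numbered libraries correlated with 0.0603, 0.510 and 0.219, and not every library correlated best with its own number, so that no pairing beyond the number itself was assumed.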

Other observations

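A few genes around the susceptibility loci had non-overlapping groups without passing the adjusted threshold, and were chosen here after their values were seen. The groups did not overlap for 6 neighbours with Tet above EtOH and 4 with Tet below it, of 88 tested, which is below the 17.5% of all genes. *PKN2-AS1*, a non-coding RNA gene 271880 bases after *LMO4*, had 2.96 ± 0.301 CPM in EtOH libraries and 6.94 ± 0.289 CPM in Tet libraries (SD, n = 3 per group; log2 fold change 1.22 with an SE of 0.22, edgeR adjusted p = 0.0812). *MGST1*, a microsomal glutathione transferase gene whose span overlaps that of *LMO3* without shared exon bases, had 53.0 ± 27.5 and 19.3 ± 3.48 CPM (log2 fold change -1.46 with an SE of 0.34, edgeR adjusted p = 0.145). *RIC3*, a chaperone gene of acetylcholine receptors 55254 bases from *LMO1*, had 5.98 ± 2.40 and 10.6 ± 2.48 CPM (log2 fold change 0.82 with an SE of 0.35, edgeR adjusted p = 0.442). Inside the span of *CASC15*, the unnamed gene ENSG00000280443 on the same strand had 5.06 ± 0.458 and 9.50 ± 2.89 CPM (log2 fold change 0.91 with an SE of 0.26, edgeR adjusted p = 0.246). It lies between *CASC15* exons that end at 21802740 and start at 21885656. Unspliced *CASC15* RNA there would also be counted as ENSG00000280443, and its share was not tested.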
